A study of Oryctolagus cuniculus with 16 samples.

Results

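Integrins are surface receptors built of an alpha and a beta chain, and laminins are trimers of alpha, beta and gamma chains that form the scaffold of basement membranes. The genes described here are every row of the gene table whose symbol is that of an integrin alpha chain, an integrin beta chain or a laminin chain. This gave 32 of 29587 genes, of which 24 encode integrins and 8 encode laminins. By their usual cell of expression and ligand, 8 were taken as leukocyte integrins, 15 as stromal and epithelial integrins and 1 (ITGA2B) as a platelet integrin. The chains ITGB3, ITGA9, LAMA5, LAMB4 and LAMC3 were not analysed here. After a filter on low counts 31 of the 32 genes were tested. The gene removed was ITGB6, a chain of a receptor found mainly on epithelium, with 20 reads in Turned Ti replicate 1, 9 reads over the Turned Cu libraries and none elsewhere.

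RNA was taken from the tibiae of 4 rabbits 10 days after surgery, to compare early bone healing around implants of different metal and surface. Sham sites were drilled holes, labelled Sham in place of an implant. Turned Ti sites held a turned implant of commercially pure titanium, SLA Ti sites a titanium implant whose surface was sandblasted with large grit and etched with acid, and Turned Cu sites a turned implant of copper. Each of the 4 rabbits carried 1 site of each kind, at the right or left, proximal or distal tibia, so that each group has 4 libraries from 4 animals and the same rabbits recur in every group. The rabbits' strain, sex and age are not given in the labels, and no gene was altered. Once the implant was out, a curette was used to collect the tissue lining the hole, which is a mixture of cells. In such bulk tissue, fewer cells of a type and less RNA per cell cannot be told apart.

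Leukocyte integrins carry white blood cells out of vessels and onto their targets. Most share the beta chain encoded by ITGB2, which binds ICAM ligands on other cells and complement fragments. Stromal integrins anchor fibroblasts, bone cells, vessel walls and muscle to collagen, fibronectin and laminin, largely through the beta chain encoded by ITGB1, and they pass force and survival signals into the cell. In bone, laminins lie mainly around blood vessels, nerves and marrow fat.

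Library totals ran from 8539984 to 20406474 counts, of which nuclear protein-coding genes took from 965804 to 3960681. Sham replicate 2, Turned Ti replicate 4 and SLA Ti replicate 4 were highest in ribosomal RNA, at 65.3%, 49.6% and 44.8% of counts. Turned Cu replicates 2 and 4 were highest in mitochondrial RNA, at 93.9% and 92.6% of the counts outside ribosomal RNA. The scraped tissue held RNA of osteoblast markers: 9 of 10 were in the table. Their summed level was 3465 to 9283 CPM in Sham and 222 to 1578 CPM in Turned Cu. The list shares COL1A1 with that of fibroblast markers, so the sum is not particular to bone-forming cells. CPM are counts set against the library size after scaling by trimmed mean of M-values (TMM), and they compare 1 gene between libraries. TPM, which the authors computed per length, are used where genes are compared with each other, as shares within a library.

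Against Sham, Turned Cu had higher RNA of leukocyte integrins and lower RNA of nearly all other integrins and of laminins. A gene is called higher or lower at an adjusted p under 0.05 (edgeR quasi-likelihood test, Benjamini-Hochberg over all 11617 genes tested). By this rule 5 of 8 leukocyte integrins were higher and none lower, 12 of 14 tested stromal and epithelial integrins were lower and none higher, and 7 of 8 laminins were lower and none higher. The platelet chain ITGA2B was also lower. Over all genes tested 42.8% were called, 23.2% higher and 19.6% lower. The median log2 fold change was 2.05 over the leukocyte integrins, −2.60 over the stromal and epithelial integrins and −3.43 over the laminins, beside −0.06 over all genes tested. The groups did not overlap for 4 of the higher genes and 18 of the lower ones among the 31, beside 21.8% of all genes tested that lay wholly higher and 18.4% that lay wholly lower. The counts over the 31 genes were 5 higher and 20 lower; without the 3 libraries highest in ribosomal RNA they were 4 and 19, and without the 2 Turned Cu libraries highest in mitochondrial RNA 5 and 18.

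**Figure D1:**
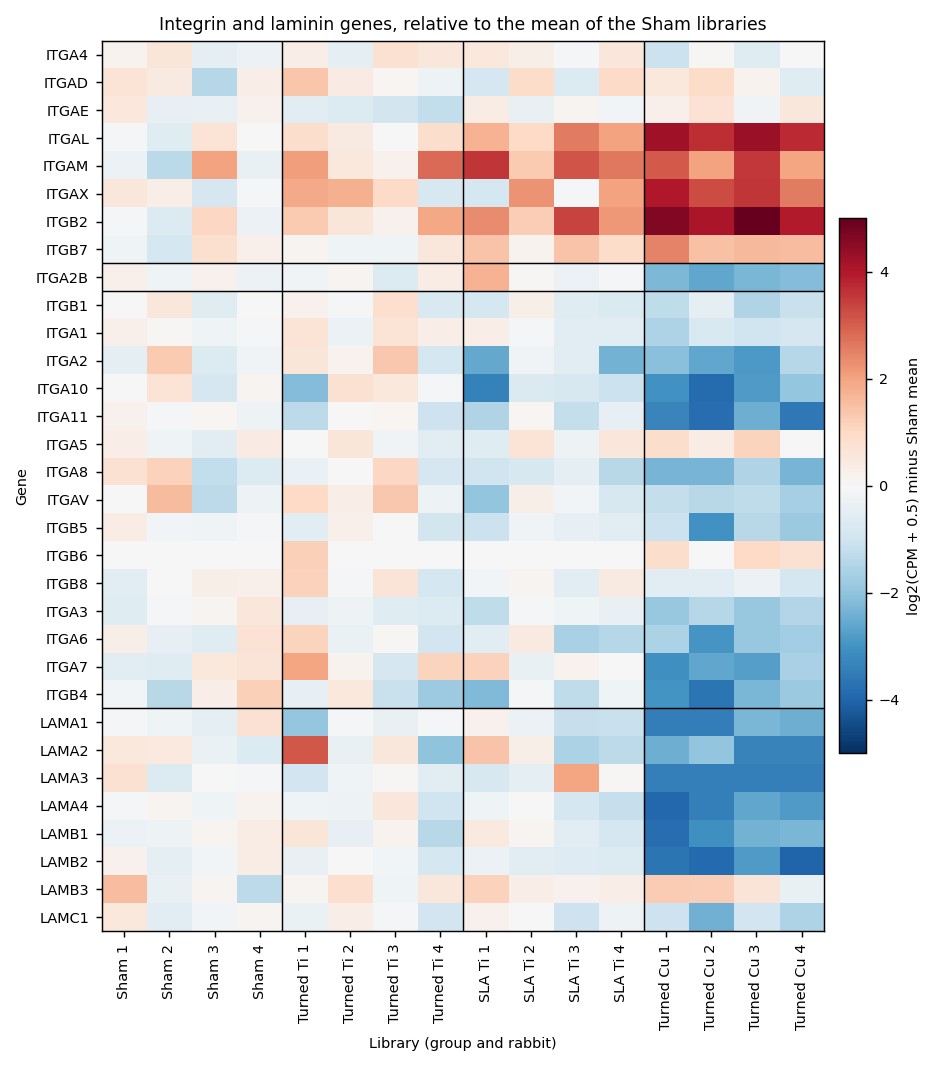
Each cell is log2(CPM + 0.5) of a gene in a library (columns, grouped by site and numbered by rabbit) minus the mean of the 4 Sham libraries, with rows grouped from the top as leukocyte integrins, ITGA2B, stromal and epithelial integrins, and laminins. In the 4 Turned Cu columns ITGB2, ITGAL and ITGAX are red and most rows from ITGA2B downwards are blue, while ITGA5, ITGB6 and LAMB3 are not.

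The beta chain common to the leukocyte receptors, ITGB2 (ENSOCUG00000011544), had the highest log2 fold change of the 31 genes tested. It stood at 45.8, 29.1, 99.4 and 38.7 CPM in Sham and at 1197, 805, 1578 and 741 CPM in Turned Cu. Every Turned Cu library was above every Sham library, by several-fold. The log2 fold change was 4.34 ± 0.58 (SE, n = 4 per group; adjusted p = 3.67e-05), with ITGB2 higher at the copper site in 4 of 4 rabbits. Turned Ti libraries held 118, 73.6, 55.5 and 184 CPM and SLA Ti libraries 246, 112, 502 and 216 CPM of ITGB2. These lay between the other groups, and Turned Ti overlapped with Sham and with SLA Ti.

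ITGAL encodes the alpha chain that pairs with ITGB2 to form LFA-1, the receptor by which lymphocytes and other leukocytes bind ICAM1. Its level was 14.2, 9.42, 23.8 and 14.6 CPM in Sham and 285, 198, 304 and 201 CPM in Turned Cu. The groups did not overlap, and the log2 fold change was 3.99 ± 0.41 (adjusted p = 1.08e-05). Turned Ti held 27.8, 20.3, 14.8 and 27.5 CPM and SLA Ti 50.2, 30.0, 90.8 and 61.0 CPM. All SLA Ti libraries were above all Turned Ti and Sham libraries in ITGAL, and below all Turned Cu libraries.

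ITGAM encodes the alpha chain of Mac-1, the complement receptor of neutrophils and macrophages, and behaved less evenly. Sham held 11.1, 5.11, 56.7 and 10.5 CPM, Turned Ti 59.4, 19.9, 15.8 and 101 CPM, SLA Ti 171, 34.8, 125 and 87.2 CPM and Turned Cu 118, 57.0, 166 and 55.1 CPM. Sham replicate 3 was close to the lowest Turned Cu libraries, and SLA Ti and Turned Cu covered nearly the same range. ITGAM was called higher in Turned Cu than in Sham at a log2 fold change of 2.24 ± 0.75 (adjusted p = 0.0221). That call was lost without Sham replicate 1, 2 or 4 (1.96, 1.91 and 1.94), without Turned Cu replicate 1 or 3 (2.06 and 1.72) and without the 3 libraries highest in ribosomal RNA (1.85), and the value was 3.34 without Sham replicate 3.

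ITGAX, the alpha chain of a second complement receptor found on dendritic cells and macrophages, was at 5.24, 4.44, 1.65 and 3.26 CPM in Sham and at 61.3, 37.3, 46.2 and 22.9 CPM in Turned Cu. The groups were apart, with a log2 fold change of 3.53 ± 0.73 (adjusted p = 0.000881). ITGB7, a beta chain of gut-homing and intraepithelial lymphocyte receptors, was at 2.20, 1.21, 4.90 and 3.22 CPM in Sham and at 16.6, 8.00, 9.04 and 8.61 CPM in Turned Cu. This too left a gap between groups (log2 fold change 1.85 ± 0.42, adjusted p = 0.00179). The alpha partners of the ITGB7 chain were not called: ITGAE, the E-cadherin receptor chain, had a log2 fold change of 0.38 ± 0.43, and ITGA4, which also pairs with ITGB1 to bind VCAM1, one of −0.42 ± 0.35. ITGAD, a further partner of ITGB2, had 0.18 ± 0.66, and its sign depended on the setting.

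**Figure D2:**
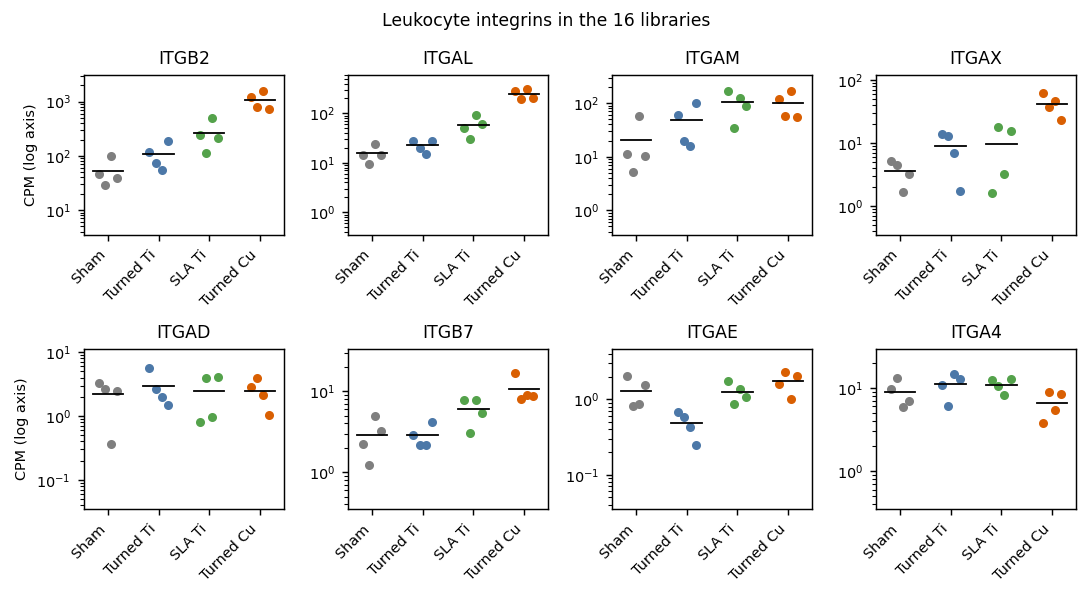
Points are CPM (log axis) of the 8 leukocyte integrins in the 4 libraries of each group, and bars are group means. ITGB2 and ITGAL lie highest in Turned Cu with no overlap with any other group, ITGAM in SLA Ti and Turned Cu covers 1 range, and ITGAD and ITGA4 show no group set apart.

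Marker genes of blood cells were split in this comparison, in which 23.2% of all genes tested were called higher and 19.6% lower. Of 10 pan-leukocyte markers 7 were in the table, headed by PTPRC, CD53 and LCP1, and 6 of these 7 were called higher in Turned Cu than in Sham. Their summed level ran from 68.0 to 150 CPM in Sham, 109 to 255 CPM in Turned Ti, 155 to 1039 CPM in SLA Ti and 1115 to 1790 CPM in Turned Cu. The 10 neutrophil markers in the table summed to 16.8 to 479 CPM in Sham and 1093 to 2214 CPM in Turned Cu, with the highest Sham value in replicate 3. Of these 10, 7 were called higher, CSF3R, CXCR2 and FPR1 among them, and none lower. The granule genes LCN2 (−3.07 ± 1.28), MPO (−2.81 ± 1.42) and MMP8 (−2.62 ± 1.78) had negative log2 fold changes that were not called against Sham, but all 3 were called lower against Turned Ti and SLA Ti.

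Macrophage markers summed to 102 to 162 CPM in Sham and 603 to 945 CPM in Turned Cu, mostly through CD68, with means of 32.1 and 500 CPM. Only CD68, CD14 and MSR1 of 9 tested were called higher and none lower, beside 23.2% of all genes higher, and the median log2 fold change was 0.12. C1QA (−1.77 ± 0.96), C1QC (−1.58 ± 0.77), C1QB (−1.04 ± 0.99) and CD163 (−0.81 ± 0.60) had negative values that were not called. T cell markers were low but apart, at 1.48 to 5.27 CPM in Sham and 8.32 to 15.3 CPM in Turned Cu, and 2 of 4 tested, CD5 and CD4, were called higher. Of 4 osteoclast markers tested none was called. The part of these cells in the integrin values was not tested.

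The makeup of the RNA of these chains can be read from TPM, as a share of the summed TPM of the named chains within each library. The receptors themselves were not measured. ITGB2 made up 25.2%, 14.8%, 50.8% and 22.6% of integrin beta chain TPM in the Sham libraries. In Turned Cu its share was 94.4%, 91.7%, 96.6% and 92.6%. In every Turned Cu library 1 chain thus made up nearly all TPM of the named beta chains. ITGB1 had the highest share in 3 of 4 Sham libraries. Turned Ti shares of ITGB2 were 47.3%, 36.0%, 23.0% and 71.3%, and SLA Ti shares 77.3%, 44.1%, 84.4% and 72.0%. The ratio of ITGB2 to ITGB1 TPM had a median of 0.489 in Sham, 1.04 in Turned Ti, 4.78 in SLA Ti and 26.7 in Turned Cu.

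Among the 4 alpha chains that pair with ITGB2, the share of ITGAL also differed. ITGAL TPM was above ITGAM TPM in Sham replicates 1, 2 and 4 (ratios of 1.21, 1.71 and 1.30) and in every Turned Cu library. ITGAL held 41.5%, 42.6%, 27.7% and 46.6% of their summed TPM in Sham and 58.6%, 65.0%, 56.5% and 69.9% in Turned Cu. In SLA Ti, ITGAL held 21.4%, 32.9%, 39.7% and 35.0%, and ITGAM 40.6% to 77.6%. Turned Cu thus lay above all other groups in the ITGAL share without overlap, and SLA Ti did not lie above Sham. The ratio of ITGAL to ITGAM TPM ran from 1.72 to 3.44 in Turned Cu, from 0.396 to 1.71 in Sham, from 0.257 to 0.960 in Turned Ti and from 0.276 to 0.810 in SLA Ti. As ITGAM, ITGAX and ITGAD are similar in sequence, reads may have been split among them or left out by the authors' counting, and their shares are uncertain. The share of ITGAL and its ratio to ITGAM are set against these chains, so they are uncertain as well.

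**Figure D3:**
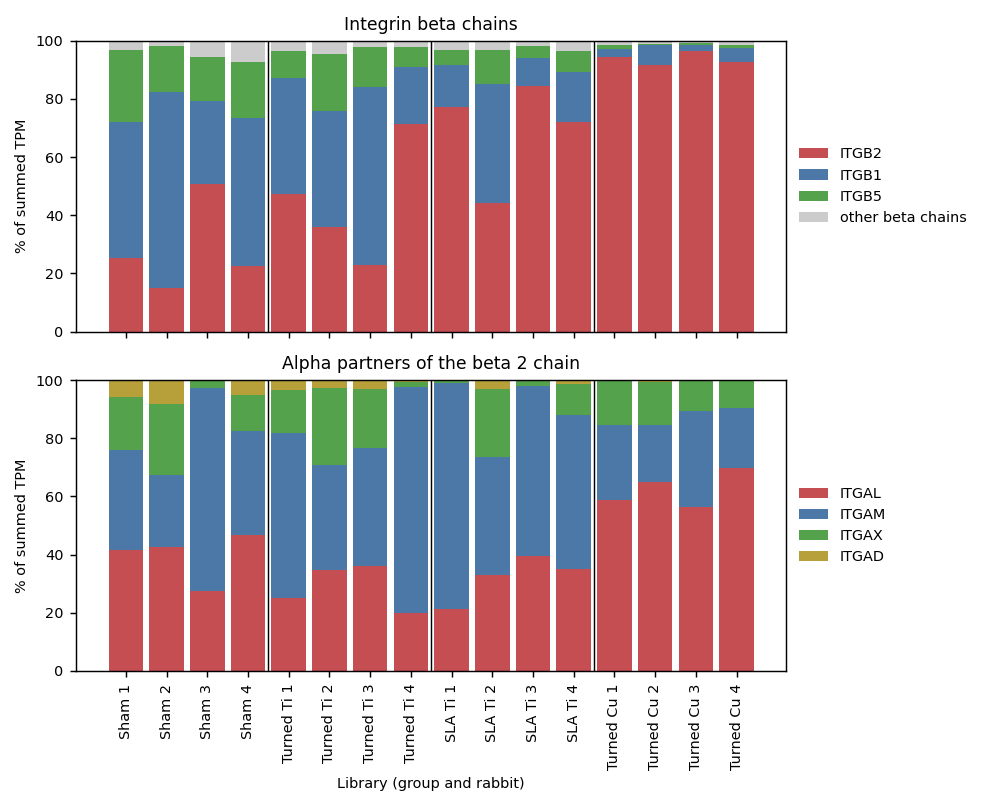
Stacked bars give the percentage of summed TPM in each library for the 7 named integrin beta chains (top) and for the 4 alpha chains that pair with ITGB2 (bottom). ITGB2 fills 91.7% to 96.6% of the top bars in Turned Cu, and ITGAL 56.5% to 69.9% of the bottom bars.

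Of the chains shared by stromal receptors, ITGB1 encodes the partner of most matrix-binding alpha chains. It was at 101, 151, 66.2 and 104 CPM in Sham and at 41.2, 71.4, 35.7 and 46.5 CPM in Turned Cu. The groups overlapped by 1 pair of libraries. ITGB1 was called lower at a log2 fold change of −1.11 ± 0.39 (adjusted p = 0.0275), a call lost without Sham replicate 2 (−0.91).

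All 4 collagen-binding alpha chains were lower in Turned Cu than in Sham. ITGA11, a receptor of fibroblasts and bone-forming cells for fibrillar collagen, was at 30.1, 25.0, 27.2 and 21.5 CPM in Sham and at 2.15, 1.37, 4.33 and 1.72 CPM in Turned Cu. The groups were far apart, with a log2 fold change of −3.41 ± 0.47 (adjusted p = 4.21e-05). ITGA10, known from cartilage and bone surfaces, had a log2 fold change of −3.35 ± 0.79, ITGA2, which platelets and epithelia also carry, of −2.87 ± 0.78 and ITGA1, found on smooth muscle and capillaries, of −1.15 ± 0.33. None of these 4 overlapped between the groups. Single libraries moved 3 of these genes by over 1.5 times: ITGA11 was −4.08 without Turned Cu replicate 3, ITGA10 −4.09 and ITGA2 −3.56 without Turned Cu replicate 4, and ITGA2 −2.21 without Sham replicate 2.

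The receptors that bind the RGD motif of fibronectin and related proteins did not all pass the test. ITGA8, a chain of mesenchymal and smooth muscle cells, was at 3.75, 5.11, 0.551 and 1.05 CPM in Sham and had reads in 1 Turned Cu library alone, 3 reads at 0.382 CPM in replicate 3. Its log2 fold change was −4.40 ± 1.01, and −8.53 without Turned Cu replicate 3, when the copper group held no read. ITGB5 fell by 1.74 ± 0.38 on the log2 scale, and its partner ITGAV, the alpha chain of the vitronectin receptors, by 1.81 ± 0.57, a call lost without Sham replicate 2 (−1.0005), without the 3 libraries highest in ribosomal RNA (−1.13) and without the 2 Turned Cu libraries highest in mitochondrial RNA (−1.77). ITGA5, the alpha chain of the classical fibronectin receptor, was an exception. It was at 44.0, 30.3, 24.3 and 46.3 CPM in Sham and at 64.6, 45.1, 76.5 and 35.5 CPM in Turned Cu. The groups overlapped and the log2 fold change of 0.61 ± 0.36 was not called (adjusted p = 0.185), nor was that of ITGB8, a chain of a receptor that frees active TGF-beta, at −0.92 ± 0.61.

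Among alpha chains, ITGA5 took 23.9%, 14.1%, 13.4% and 26.2% of alpha chain TPM in Sham and 11.2%, 11.9%, 12.2% and 10.0% in Turned Cu, below every Sham library, while ITGAL took 47.3% to 56.6%. The share of ITGAV was 4.95% to 32.6% in Sham and 1.32% to 2.35% in Turned Cu.

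All 4 chains of the laminin-binding integrins were lower, without overlap. ITGA7, best known from muscle, was at 2.32, 2.29, 5.63 and 6.11 CPM in Sham and at 0, 0.195, 0.127 and 0.861 CPM in Turned Cu (log2 fold change −3.86 ± 0.85, adjusted p = 0.00149). ITGA6, which vessels and many epithelia use, had a log2 fold change of −2.33 ± 0.59, its partner ITGB4 of −3.61 ± 0.85 and ITGA3, a receptor of skin and kidney epithelium, of −4.06 ± 0.80. The copper libraries held few reads of these genes, and single libraries moved 3 of them by over 1.5 times. Without Turned Cu replicate 4, ITGA7 was −5.38, ITGB4 −4.27 and ITGA3 −4.76, and without Turned Cu replicate 2 ITGA3 was −4.79.

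The laminin genes code for the ligands of those receptors. LAMA4, the alpha chain of vessel and fat basement membranes, was at 59.1, 68.9, 54.7 and 72.5 CPM in Sham and at 3.73, 5.46, 9.93 and 8.44 CPM in Turned Cu. LAMB1, the beta chain of most laminins, was at 53.9, 56.0, 73.7 and 86.7 CPM in Sham and at 4.31, 7.42, 12.5 and 13.3 CPM in Turned Cu. Neither gene had overlapping groups, with log2 fold changes of −3.21 ± 0.40 for LAMA4 (adjusted p = 2.52e-05) and −2.85 ± 0.46 for LAMB1 (adjusted p = 0.000137). LAMB2, the beta chain of muscle, nerve and arterial laminins, was at 79.4, 49.1, 60.7 and 88.4 CPM in Sham and at 4.88, 4.10, 9.17 and 3.79 CPM in Turned Cu. Its log2 fold change of −3.65 ± 0.35 had the smallest p of the 31 genes (adjusted p = 6.59e-06).

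LAMC1, the gamma chain of nearly all laminins, was nearer between the groups. It was at 102, 47.5, 64.2 and 77.0 CPM in Sham and at 33.7, 12.9, 35.7 and 23.4 CPM in Turned Cu. The groups were apart by a narrow gap, with a log2 fold change of −1.46 ± 0.38 (adjusted p = 0.00547). LAMA1, an embryonic alpha chain, and LAMA2, the alpha chain around muscle fibres and Schwann cells, had log2 fold changes of −4.09 ± 0.75 and −4.08 ± 1.31. Both rested on few copper reads: LAMA1 was −5.14 without Turned Cu replicate 3, and LAMA2 −5.09 without Turned Cu replicate 2 and −4.59, no longer called, without replicates 2 and 4.

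LAMA3 (ENSOCUG00000009869; chromosome 9, 64876399 to 65127988, plus strand, as the gene table places it) codes for the alpha chain of epithelial laminins. Sham libraries held 8.52, 2.83, 4.84 and 4.50 CPM, Turned Ti 2.23, 4.08, 5.06 and 3.15 CPM and SLA Ti 2.57, 3.26, 20.2 and 5.03 CPM. No read of LAMA3 was counted in any of the 4 Turned Cu libraries. Taking 3 reads over the copper group as the floor, LAMA3 was at least 46.6-fold lower in Turned Cu than in Sham. Against Turned Ti it was at least 31.2-fold lower, and against SLA Ti at least 60.3-fold lower. The last bound was 28.6 without SLA Ti replicate 3. With LAMA3 at its bound the median over the laminins stayed at −3.43 against Sham, and its call in edgeR had an adjusted p of 0.00015.

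LAMB3, the beta chain that joins LAMA3 in the laminin of epithelial attachment, did not follow it. It was at 3.99, 0.673, 1.16 and 0.121 CPM in Sham and at 3.16, 3.12, 1.91 and 0.689 CPM in Turned Cu. The groups overlapped fully and the log2 fold change of 0.56 ± 0.71 was not called (adjusted p = 0.555). In TPM, LAMB3 was 0.10% to 4.01% of laminin beta chains in Sham and 5.26% to 32.5% in Turned Cu, where the other beta chains were low. Epithelial markers were near 0 throughout: 7 of 11 were in the table, none passed the filter, and their summed level was 0.197 to 2.93 CPM over the 16 libraries, with ESRP1 and GRHL2 at 0 in all Turned Cu libraries.

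**Figure D4:**
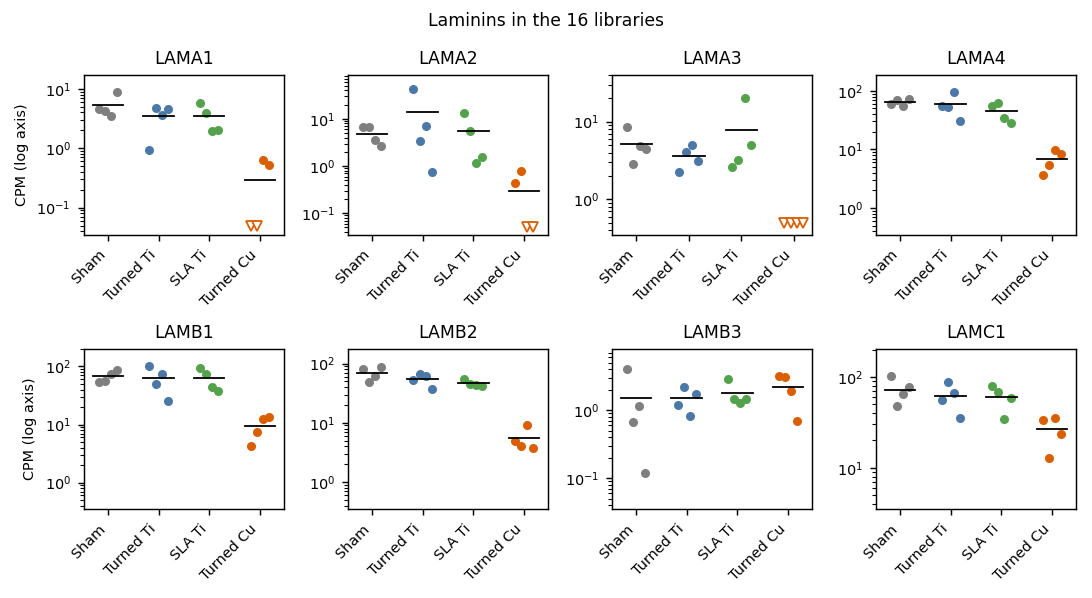
Points are CPM (log axis) of the 8 laminin genes in the 4 libraries of each group, bars are group means, and open triangles at the foot of a panel are libraries without a read. LAMA3 has no read in Turned Cu, LAMA4, LAMB1, LAMB2 and LAMC1 are lowest there, and LAMB3 covers the range of the other groups.

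Most stromal and vascular markers were lower in Turned Cu, as were these integrins and laminins. The 7 fibroblast markers in the table (of 10; PDGFRA, DCN and LUM head the list) summed to 10043 to 22278 CPM in Sham and 490 to 2974 CPM in Turned Cu. Smooth muscle and pericyte markers summed to 146 to 243 CPM and 15.5 to 40.5 CPM. Of 9 endothelial markers 7 were called lower, CDH5, TEK and TIE1 among them, beside 19.6% of all genes tested. But KDR, singled out after its values were seen, was called higher. The summed level of the endothelial markers, 81.3 to 208 CPM in Sham, overlapped that of 21.9 to 149 CPM in Turned Cu. Of the Schwann cell markers, the myelin gene MBP was called higher (5.25 ± 0.45), from 2.70 ± 0.47 CPM in Sham to 103 ± 31.7 CPM in Turned Cu (mean ± SD). SOX10 and CDH19 had no read in Turned Cu. In each group, Sham included, up to 4 of the 6 Schwann cell markers in the table had no read in a library. The part of these cells in the integrin and laminin values was not tested.

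ITGA2B, the alpha chain of the platelet fibrinogen receptor, was at 3.16, 2.15, 3.00 and 2.01 CPM in Sham and at 0.144, 0, 0.127 and 0.172 CPM in Turned Cu. The groups were far apart (log2 fold change −4.40 ± 0.73, adjusted p = 0.000162). The 5 platelet and megakaryocyte markers in the table (of 10) did not move with it: they summed to 3.36 to 6.67 CPM in Sham and 3.88 to 10.2 CPM in Turned Cu. GP9 had no read in Sham or Turned Cu and GP1BA none in Turned Cu, while GP5 was called higher, from a mean of 0.22 to 3.28 CPM.

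Against Turned Ti, which differs from Turned Cu in metal but not in the way the surface was made, the same counts were found. Of the 31 genes 5 were higher and 20 lower, beside 21.1% higher and 19.6% lower (40.7% in all) of all genes tested. They split into 5 of 8 leukocyte integrins higher, 12 of 14 stromal and epithelial integrins lower, 7 of 8 laminins lower and ITGA2B lower. The leukocyte integrin ITGA4 was not called in edgeR, but DESeq2 called it lower (−0.89, adjusted p = 0.0287). Median log2 fold changes were 1.84, −2.61 and −3.19 for the leukocyte, the stromal and epithelial and the laminin genes, and −0.10 over all genes tested. The comparisons of Turned Cu with Sham, Turned Ti and SLA Ti share the copper libraries, so their likeness is no independent evidence. Without the 3 libraries highest in ribosomal RNA the counts were 4 higher and 21 lower, and without the 2 Turned Cu libraries highest in mitochondrial RNA 4 and 19.

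ITGB2 and ITGAL were again the most raised, with log2 fold changes of 3.33 ± 0.56 (adjusted p = 0.000222) and 3.45 ± 0.40 (adjusted p = 2.5e-05), without overlap and in 4 of 4 rabbits. ITGB7 had 1.91 ± 0.42 and ITGAX 2.23 ± 0.68, the latter lost without Turned Cu replicate 1 (1.85) and without the 3 libraries highest in ribosomal RNA (1.80). ITGAE was called here, at 1.78 ± 0.45 (adjusted p = 0.00455). Its levels were low, at 0.679, 0.591, 0.430 and 0.249 CPM in Turned Ti and 1.58, 2.34, 1.02 and 2.07 CPM in Turned Cu. The groups were apart, but Turned Ti was also the group lowest in ITGAE, and without the 2 Turned Cu libraries highest in mitochondrial RNA the value of 1.31 was not called. ITGAM, at 1.02 ± 0.72, was not called (adjusted p = 0.28).

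Among the lower genes, LAMB2 (−3.30 ± 0.34) and LAMA4 (−3.08 ± 0.40) had the smallest p. LAMA2, at −5.59 ± 1.30, had the lowest fitted value of the genes with reads in Turned Cu, which rested in part on 1 library. Turned Ti libraries held 43.4, 3.44, 7.06 and 0.746 CPM of LAMA2, and without replicate 1 the value was −3.89. In the same library ITGA7 was at 16.0 CPM, against 1.86 to 8.62 CPM in the other Turned Ti libraries, and skeletal muscle markers summed to 152 CPM, against 3.12 CPM or less in the other 15 libraries. The part of muscle in LAMA2 and ITGA7 in that library was not tested. ITGB1 (−1.22 ± 0.39) was not called without Turned Ti replicate 3 (−0.91), and LAMC1 (−1.22 ± 0.38) was not called without Turned Ti replicate 2 (−1.003) or without the 2 Turned Cu libraries highest in mitochondrial RNA (−0.87). ITGAV (−2.18 ± 0.58) was not called in that last setting either (−2.08).

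Other sizes in this comparison also moved by over 1.5 times with 1 library. Without Turned Cu replicate 4, ITGA10 moved from −3.37 to −4.07, ITGA2 from −3.21 to −3.84, ITGA7 from −4.76 to −6.26 and ITGB4 from −2.82 to −3.46. Without Turned Cu replicate 3, ITGA11 moved from −2.96 to −3.62, ITGA8 from −4.25 to −8.34 and LAMA1 from −3.48 to −4.52. ITGA3 moved from −3.27 to −3.98 without Turned Cu replicate 2 and to −3.95 without replicate 4, and LAMA2 from −5.59 to −6.55 without replicate 2. ITGB4 was −2.20 without Turned Ti replicate 2, and ITGA8 −3.64 without Turned Ti replicate 3. All of these stayed called.

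Against SLA Ti, 3 of the 31 genes were higher and 16 lower, beside 15.3% higher and 15.7% lower (31.0% in all) of all genes tested. The higher genes were ITGAL (2.09 ± 0.38, adjusted p = 0.00089), ITGB2 (2.00 ± 0.53, adjusted p = 0.00931) and ITGAX (2.14 ± 0.68, adjusted p = 0.0245). Of the laminins 7 of 8 were lower again, with a median of −2.90, and of the stromal and epithelial integrins 8 of 14, with a median of −1.56, beside −0.02 over all genes tested. The median over the leukocyte integrins was 0.63. Of these, ITGA4 was not called in edgeR but was called lower in DESeq2 (−0.85, adjusted p = 0.0458). Counts were 3 higher and 17 lower without the 3 libraries highest in ribosomal RNA, 3 and 11 without the 2 Turned Cu libraries highest in mitochondrial RNA, and 2 and 16 without SLA Ti replicate 3, the SLA Ti library highest in pan-leukocyte markers.

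ITGAL kept Turned Cu and SLA Ti apart in every library, and so did ITGB2, whose highest SLA Ti library (502 CPM) was below the lowest Turned Cu library (741 CPM). ITGAX was not called without SLA Ti replicate 1 (1.77) or 3 (1.71) or Turned Cu replicate 1 (1.72) or 3 (1.90). ITGB7 did not overlap between the groups and was higher in 4 of 4 rabbits, but at 0.82 ± 0.40 it was not called (adjusted p = 0.13). ITGAM had a log2 fold change of −0.08 ± 0.71 and changed sign between settings. Neutrophil markers, which summed to 120 to 2814 CPM in SLA Ti, overlapped with Turned Cu as ITGAM did. Of these 10 markers none was called higher in Turned Cu than in SLA Ti, and LCN2 (−5.78 ± 1.44), MPO (−5.74 ± 1.49) and MMP8 (−5.28 ± 1.68) were lower without overlap.

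Among the laminins, LAMB2 (−3.07 ± 0.34), LAMA4 (−2.70 ± 0.39) and LAMB1 (−2.73 ± 0.46) were lower in Turned Cu than in SLA Ti in every setting tried. LAMC1 (−1.20 ± 0.38) was not called without SLA Ti replicate 1 (−1.05) or 2 (−1.22), without Turned Cu replicate 2 (−1.06) or 4 (−1.22), or without both of these copper libraries (−0.87). LAMA2 (−4.26 ± 1.30) was not called without SLA Ti replicate 1 (−3.33), without Turned Cu replicate 3 (−3.95) or without replicates 2 and 4 (−4.73), and was −5.23 without Turned Cu replicate 2. LAMA1 moved from −3.48 to −4.50 without Turned Cu replicate 3.

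Several stromal calls against SLA Ti were weak. With rabbit as a block, ITGA1 (−0.98 ± 0.33) was −0.93 (adjusted p = 0.0549) and ITGA6 (−1.65 ± 0.59) was −1.57 (adjusted p = 0.0587), so that neither was called, and 14 genes were lower in place of 16. ITGA1 was also lost without SLA Ti replicate 1 (−0.75) and in a fit to the 2 groups alone (−0.99). ITGA6 was lost without SLA Ti replicate 1 (−1.67) or 2 (−1.11), without Turned Cu replicate 2 (−1.50), 3 (−1.85) or 4 (−1.84), and without replicates 2 and 4 (−1.46). ITGB5 (−1.19 ± 0.37) was lost without SLA Ti replicate 2 (−1.16), Turned Cu replicate 4 (−1.22) or both Turned Cu replicates 2 and 4 (−0.81).

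The same held for 2 genes with few reads in copper. ITGA8 (−2.88 ± 1.06) was lost in 6 of the 8 fits that left out 1 library of either group, with values of −2.61 to −2.97, and without Turned Cu replicates 2 and 4 (−2.17), and was −6.99 without Turned Cu replicate 3. ITGB4 (−2.50 ± 0.84) was lost without SLA Ti replicate 2 (−2.27) or 4 (−2.44), without Turned Cu replicate 1 (−2.44) or 2 (−2.28) and without replicates 2 and 4 (−2.68), and was −3.18 without Turned Cu replicate 4. ITGA11 (−2.77 ± 0.46), ITGA3 (−3.33 ± 0.82), ITGA7 (−4.12 ± 0.85) and ITGA2B (−5.10 ± 0.71) stayed called. ITGA11 was −3.44 without Turned Cu replicate 3, ITGA3 −4.08 and −4.04 without Turned Cu replicates 2 and 4, ITGA7 −5.63 without Turned Cu replicate 4, and ITGA2B −4.29 without SLA Ti replicate 1.

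**Figure D5:**
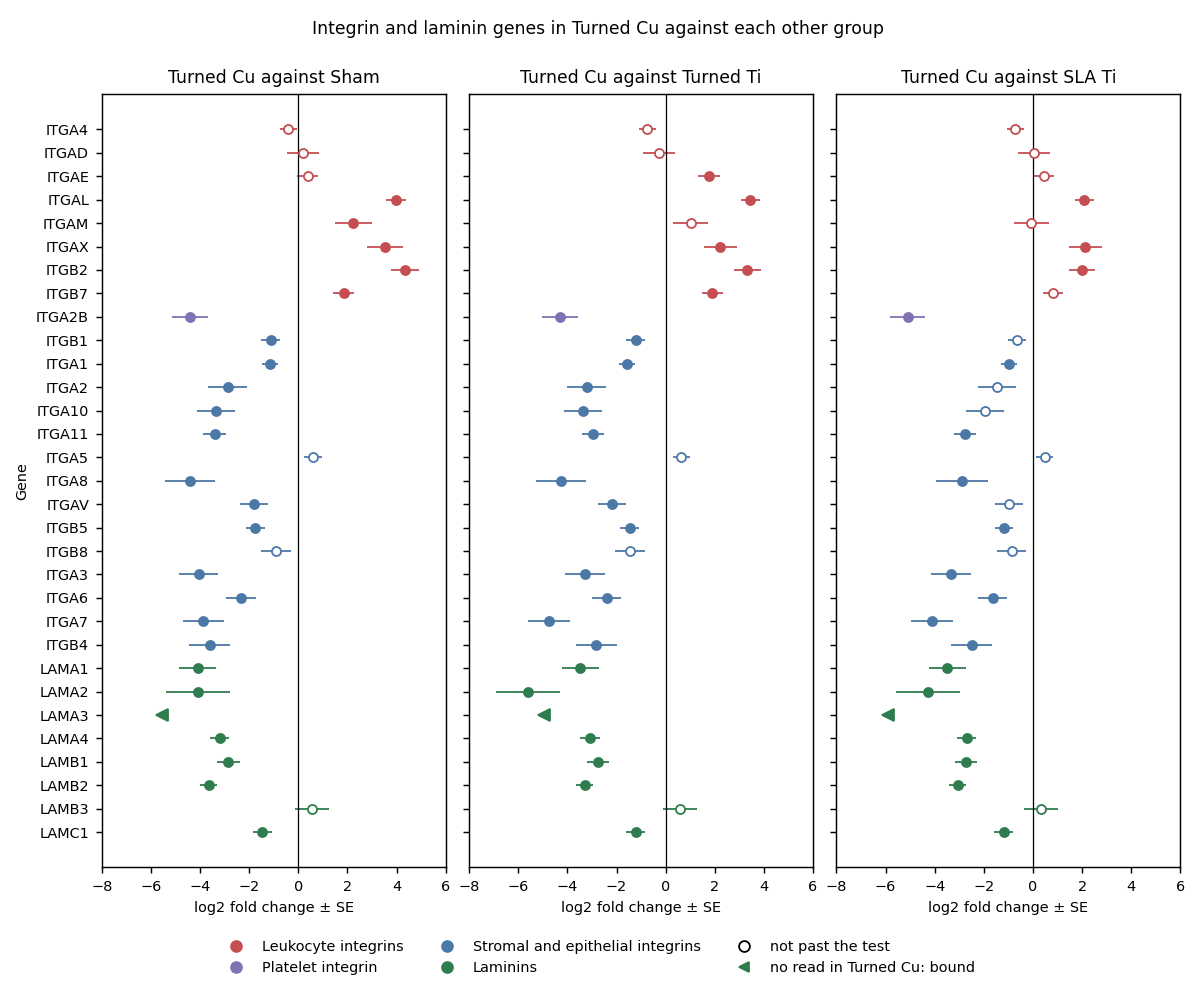
Points are log2 fold changes of Turned Cu against Sham, Turned Ti and SLA Ti with SE bars, filled where the gene passed the test and coloured by class, and the arrowhead is the bound for LAMA3, which had no read in Turned Cu. The leukocyte integrins lie at or right of 0 apart from ITGA4 and values near 0 of ITGAD and ITGAM, and the laminins left of 0 apart from LAMB3.

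Between the titanium implants and Sham, no integrin or laminin gene passed the test in edgeR. Over all 11617 genes 0% were called in each of these 3 comparisons. For Turned Ti against Sham, 1 of the 31 genes had an unadjusted p under 0.05, beside 2.50% of all genes, and DESeq2 called none. That gene was ITGAE, lower in Turned Ti in 4 of 4 rabbits without overlap (−1.40 ± 0.43, adjusted p = 1). The median log2 fold change was 0.49 over the leukocyte integrins, 0.04 over the stromal and epithelial integrins and −0.18 over the laminins, against 0.04 over all genes tested.

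SLA Ti against Sham had 4 genes higher and 1 lower at an unadjusted p under 0.05. This share of the 31 genes was near the 14.3% of all genes, counted in either direction. The 4 were leukocyte integrins: ITGAL (1.90 ± 0.38, adjusted p = 0.104), ITGB2 (2.34 ± 0.53, adjusted p = 0.104), ITGAM (2.32 ± 0.75, adjusted p = 0.164) and ITGB7 (1.03 ± 0.41, adjusted p = 0.248), each higher in 4 of 4 rabbits. For ITGAL and ITGB2 the groups did not overlap. DESeq2 called ITGAL, ITGB2 and ITGAM, among 337 genes in all, of which 317 were higher and 20 lower. It gave 4 of the 31 genes no adjusted p. The median over the leukocyte integrins was 1.21, with pan-leukocyte markers at 155 to 1039 CPM in SLA Ti, and it was −0.66 over the stromal and epithelial integrins and −0.19 over the laminins.

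SLA Ti against Turned Ti compares the surface within 1 metal. At an unadjusted p under 0.05, 4 genes were higher and 3 lower, beside 9.02% of all genes in either direction. DESeq2 called ITGAL alone (adjusted p = 0.0258), with no adjusted p for 8 of the 31. Its calls over all genes were 101, of which 99 were higher and 2 lower. ITGAL (1.36 ± 0.37, adjusted p = 0.248) and ITGAE (1.33 ± 0.43, adjusted p = 0.332) did not overlap between the groups, and ITGB2 (1.32 ± 0.52, adjusted p = 0.443) did. Medians were 1.09 over the leukocyte integrins, −0.59 over the stromal and epithelial integrins and −0.01 over the laminins. The group means of ITGB2 and ITGAL were lowest in Sham, followed by Turned Ti, SLA Ti and Turned Cu, but of the neighbouring groups in that order the test set apart SLA Ti and Turned Cu alone.

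Ligands and partners of the integrins were counted in the comparison of Turned Cu with Sham. Of 11 listed ligands of leukocyte integrins, 8 were in the table and 7 were tested. Among these 7, 1 was higher and 3 lower, beside 23.2% higher and 19.6% lower of all genes. A list this short does not stand apart by its count. ICAM1, the endothelial and leukocyte ligand of LFA-1 and Mac-1, rose from 12.1 ± 3.56 to 42.9 ± 12.3 CPM (SD; log2 fold change 1.82 ± 0.33, adjusted p = 0.000331). VCAM1, the ligand of the ITGA4 receptor, was at 19.7, 9.82, 4.71 and 11.9 CPM in Sham and at 0.144, 1.37, 0 and 0.344 CPM in Turned Cu (−4.79 ± 0.96, adjusted p = 0.000723). The 2 ligands thus moved apart without overlap, and JAM2 and JAM3, junction proteins of vessels that leukocyte integrins bind, were lower as well. Both were at low levels. JAM3 had means of 2.78 CPM in Sham and 0.26 CPM in Turned Cu (−3.33 ± 0.75). JAM2 had means of 1.63 and 0.36 CPM and was called only narrowly (−2.30 ± 0.91, adjusted p = 0.0497).

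Of 17 tested matrix ligands of integrins (18 listed), 11 were lower and 1 higher, beside 19.6% lower and 23.2% higher of all genes tested. The median log2 fold change over these ligands was −2.50. The lower ones included TNC (−4.31 ± 0.61), THBS2 (−4.46 ± 0.64) and EDIL3 (−3.36 ± 0.63), and the higher one, named after its values were seen, was THBS1 (1.72 ± 0.61), a protein of platelets and macrophages that is also made by stroma. FN1, the fibronectin that ITGA5 receptors bind, was at 639, 667, 682 and 837 CPM in Sham and at 778, 402, 476 and 442 CPM in Turned Cu. These overlapped, and FN1 was not called (−0.43 ± 0.62, adjusted p = 0.614).

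Of 17 listed basement membrane partners of laminins, 14 were in the table and 10 were tested. Among these 10, 7 were lower and none higher, beside 19.6% lower and 23.2% higher of all genes tested. The median over these partners was −3.16. HSPG2, which codes for perlecan, was at 450, 201, 340 and 457 CPM in Sham and at 8.61, 7.81, 27.2 and 18.4 CPM in Turned Cu (−4.54 ± 0.52, adjusted p = 1.59e-05). The type IV collagen chains COL4A1 (−3.06 ± 0.52) and COL4A2 (−2.51 ± 0.50), the peroxidase PXDN that crosslinks them (−3.25 ± 0.46) and the nidogen NID2 (−3.41 ± 0.53) were also lower. HSPG2, COL4A1, COL4A2, PXDN and NID2 were called lower against Turned Ti and SLA Ti as well. Of 7 listed laminin receptors other than integrins, 4 were in the table. CD44 (2.95 ± 0.44), which chiefly binds hyaluronan, and SDC4 (2.18 ± 0.57) were higher, and the dystroglycan gene DAG1 was lower (−1.14 ± 0.25).

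Of 30 listed genes of integrin activation and the adhesion complex, 17 were in the table and 16 were tested. Among these 16, 8 were higher and 5 lower in Turned Cu than in Sham. Over all genes tested 23.2% were higher and 19.6% lower. TLN1, the talin that switches integrins on in leukocytes and most other cells, was at 257, 205, 218 and 200 CPM in Sham and at 1147, 581, 1344 and 590 CPM in Turned Cu (2.06 ± 0.36, adjusted p = 0.000272). Its relative TLN2, found mainly in muscle and brain, was lower (−3.81 ± 0.41), and so was FERMT2 (−2.30 ± 0.48), the kindlin of stromal and epithelial cells. The scaffold protein PXN (2.98 ± 0.43) and the actin crosslinker ACTN1 (2.24 ± 0.31) were higher, and the scaffold protein BCAR1 was lower (−2.51 ± 0.39).

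In the gene table, ITGAD, ITGAX, ITGAM and ITGAL lie on 1 unplaced scaffold, all on the minus strand, with 16398 bases between ITGAD and ITGAX, 18913 between ITGAX and ITGAM and 643316 between ITGAM and ITGAL. Differences among the first 3 were not tested. ITGAD was called in none of the 3 copper comparisons, ITGAM in 1 and ITGAX in 3. Some gene models overlap with a neighbour, and the sources used here do not give how the authors' counting treated shared reads and strand. LAMB2 overlaps USP19 and ITGA1 overlaps PELO on the same strand, and ITGAE overlaps HASPIN on the opposite one. ITGB2 overlaps an unnamed gene on its strand, which held 2616 reads against 64060 of ITGB2. ITGA4 and ITGAD overlap unnamed genes on both strands, and LAMA3 and LAMA4 each overlap a U2 gene on their strand. ITGA10, ITGB5, LAMA2 and LAMA4 overlap unnamed genes on the opposite strand. Values of LAMB2, ITGA1 and ITGAE are uncertain because of such overlaps, and those of the other overlapping genes may be.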

How the data were processed

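The table deposited by the authors gives, per the file headers, a read count and a TPM value for every gene and library. The deposited counts were taken as estimated counts, since 192 values of 0 counts have a TPM above 0, and TPM were used as the authors computed them. The submitters' processing notes name the aligner STAR (2.7.1a) and Cufflinks (2.2.1). How counts were made and the genome build are not given in the sources used here.

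Counts, rounded to whole numbers, were tested in R 4.3.3 with edgeR 4.0.16: filterByExpr (minimum count 10), TMM scaling, and a two-sided quasi-likelihood F test on 1 mean per group over all 16 libraries (common dispersion 0.206). Adjusted p-values are Benjamini-Hochberg values over all genes. The SE was taken as the size of the log2 fold change divided by √F. For a gene without reads in a group, the fold was bounded with 3 counts over the group. Counting error at low reads adds to the spread, and bounds cover counting error only. DESeq2 1.42.0 was an alternative.

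Replicate numbers are the rabbits named in the labels, so groups are paired by animal. Deviations of libraries of 1 rabbit correlated at 0.20 to 0.32 between SLA Ti and Sham, and at −0.17 to 0.27 in the other comparisons. In every rabbit the SLA Ti and Sham sites lay at the same end of the tibia, so animal and end cannot be told apart there. Turned Cu and Turned Ti sites shared the opposite end, and correlated at −0.14 to 0.04. Integrin and laminin genes, gene lists and markers were chosen with earlier results of these data known. Besides these genes, up to 4 listed genes of smallest p per list may be named, with TLN1, FERMT2, ICAM1, VCAM1, FN1, HSPG2, COL4A1, COL4A2 and DAG1 whatever their p. Marker genes given with values, such as LCN2, MPO, MMP8, C1QA, C1QB, C1QC, CD163 and MBP, were named after their values were seen.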

Additional observations from a re-analysis of the deposited data

Results flagged for a closer look

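In a group of 4 libraries, a value was taken as far from the others when its gap to the nearest made up more than 0.829 of the group's range. Of 128 pairs of a gene and a group 9 passed this, all by a high value. Chance gives about 1 in 20 for normally distributed values, which CPM of few reads need not be, so that rate is a rough guide. A group with reads in 1 library alone passes by construction, as for ITGB6 in Turned Ti and ITGA8 in Turned Cu. ITGB6 in Sham and in SLA Ti had no read and could not pass.

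In Sham, ITGA2 was at 15.5 CPM in replicate 2 against 3.49 to 5.31 CPM in the other 3, and ITGAM at 56.7 CPM in replicate 3 against 5.11 to 11.1 CPM. In Turned Ti replicate 1, LAMA2 was at 43.4 CPM against 0.746 to 7.06 CPM, and ITGB6 at 0.647 CPM (20 reads) against none. In SLA Ti replicate 1, ITGA2B was at 9.67 CPM against 2.00 to 2.70 CPM, and LAMB3 at 2.88 CPM against 1.29 to 1.45 CPM. LAMA3 was at 20.2 CPM in SLA Ti replicate 3 against 2.57 to 5.03 CPM. In Turned Cu, ITGB7 was at 16.6 CPM in replicate 1 against 8.00 to 9.04 CPM, and ITGA8 at 0.382 CPM (3 reads) in replicate 3 against none.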

How the results depend on the processing

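The numbers of integrin and laminin genes called in the 3 copper comparisons stayed within 1.5 times under all 18 alternatives, with 4 to 6 higher and 18 to 20 lower against Sham, 4 to 5 and 18 to 22 against Turned Ti, and 2 to 4 and 11 to 18 against SLA Ti. For SLA Ti against Sham, where edgeR called 0, DESeq2 called 3 higher, the fit with no filter on low counts 2, and the fits without 1 library 0 to 2, with 2 without SLA Ti replicate 2. For SLA Ti against Turned Ti DESeq2 called 1. The cause was not tested. With the rabbit as a block, ITGA1 and ITGA6 lost their call against SLA Ti as given above, and the block changed no other call of these genes. In the same block fit, values near 0 changed sign: ITGAM was 0.00619 against SLA Ti, and ITGB7 0.0331 for Turned Ti against Sham.

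Other sign changes were in uncalled genes. For Turned Cu, ITGAD was −0.10 against Sham with no filter, −0.00537 in a fit to the 2 groups alone and −0.000714 without SLA Ti replicate 3. Against SLA Ti, ITGAD was −0.0873 with RLE scaling, −0.0901 with DESeq2, −0.25 with no filter, −0.13 without ribosomal and mitochondrial genes, −0.0316 without the 2 Turned Cu libraries highest in mitochondrial RNA and −0.40 without SLA Ti replicate 3. Without those 2 copper libraries ITGAE was −0.11 against Sham and −0.0414 against SLA Ti, and ITGAM 0.38 against SLA Ti. ITGAM was 0.22 with the end of the tibia as a term. Leaving out 1 library at a time gave ITGAD values of −0.37 to 0.27 against Sham, −0.61 to 0.10 against Turned Ti and −0.40 to 0.23 against SLA Ti, LAMB3 values of −0.00748 to 1.65 against Sham and −0.0847 to 0.66 against SLA Ti, and ITGAM values of −0.60 to 0.26 against SLA Ti. For Turned Ti against Sham ITGB7 ran from −0.31 to 0.28, and for SLA Ti against Sham ITGAE from −0.27 to 0.20.

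For Turned Cu against Sham, the log2 fold changes of all genes shifted from the main fit by a median of −0.14 with RLE scaling. The median shift was −0.14 with DESeq2 and −0.26 with no filter, so log2 fold changes stand relative to the scaling used. The settings that leave out libraries by ribosomal RNA, mitochondrial RNA or leukocyte markers were chosen after seeing the data. ITGA8, ITGA3, ITGA7, LAMA1 and LAMA2 had means of 0.0918 to 0.303 CPM in Turned Cu, so the size of their fall is limited by depth.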
